A study of Mus musculus with 2 samples.

Results

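The cadherins and protocadherins are the genes whose symbol is *Cdh* followed by a number or begins with *Pcdh*, and 93 rows of the 22156 in the deposited gene table met this rule. They carry 92 symbols, because *Pcdha11* stands on 2 rows. Of these rows, 35 are single genes scattered over the genome, called non-clustered here, and 58 belong to the *Pcdha*, *Pcdhb* and *Pcdhg* gene clusters of chromosome 18. RNA sequencing was made of primary chondrocytes of newborn mice (from rib cartilage in the labels, from rib and articular cartilage in the study's methods) kept as a monolayer in culture, with 1 library per genotype, control and *Myl3*-KO, to ask what loss of myosin light chain 3 does to gene expression. *Myl3*-KO mice carry *Myl3* flox/flox alleles and Cre recombinase under the *Col2a1* promoter, which is active in cartilage cells. The study's text describes the controls as *Myl3* flox/flox littermates without Cre, whereas the labels give their genotype as WT. No treatment was given, and how many animals were pooled into a library is not given in the sources used here.

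Cadherins are membrane proteins that hold neighbouring cells together through calcium-dependent binding of their extracellular repeats. The classical cadherins, of type I and type II, bind p120 catenin and β-catenin at their cytoplasmic tail, and α-catenin and vinculin connect this complex to actin. In the limb and the ribs, N-cadherin (*Cdh2*) is known for the condensation of mesenchymal cells that precedes cartilage. Protocadherins lack the catenin-binding tail. Several delta protocadherins recruit the WAVE complex, which starts actin branching, and the clustered protocadherins give single neurons different surface identities through random promoter choice.

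The values are expected counts, an estimate of the reads of each gene, with totals of 17612434.91 for the control library and 13477976.98 for *Myl3*-KO. *Myl3* itself had 0 counts in both libraries, so its deletion could not be seen at this depth, and the direction between the libraries rests on the labels. The cartilage genes *Acan*, *Matn1*, *Matn3* and *Hapln1* were at 0 in both, and *Col2a1* had 30 control and 27 *Myl3*-KO counts. Other chondrocyte genes were counted, among them *Sox5* (893 and 684), *Sox9* (866 and 480) and *Col11a2* (293 and 395). The fibroblast and perichondrium gene *Col1a2* had 211652 and 189213, whereas *Thy1*, of the same list, was at 0 in both. The counts thus do not establish the labelled cell type. The floor was set at 3 counts, equal to 0.170 CPM (the count relative to the library total) for the control and 0.223 CPM for *Myl3*-KO, and counts below it were raised to it for a ratio. Genes whose counts summed to at least 10 were tested by the exact binomial test, two-sided, and p-values were adjusted by the Benjamini-Hochberg method over 12431 genes. A gene is described as past counting error where its adjusted p was under 0.05, and as called where the ratio was also at least 2-fold. The test compares the reads of these libraries and not the genotypes, no difference has a replicate check, and intervals are 95% Clopper-Pearson intervals that cover counting error only. In bulk RNA, fewer cells of a kind and less RNA per cell cannot be told apart.

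Most of the family was silent or nearly so. Of the 93 rows, 34 had 0 counts in both libraries, 21 had between 1 and 9 counts over both, and 38 were tested. Low counts were also common over the whole series. There, 7257 of 22156 rows were at 0 in both libraries, 2468 were counted but not tested, and 12431 were tested. Of the 38, 3 were called higher in *Myl3*-KO (*Cdh15*, *Pcdha4* and *Pcdhb15*) and 1 lower (*Pcdha3*), where 1.15% and 0.394% of all genes tested were called. Without a limit on the ratio 8 were past counting error upward and 1 downward, where 18.6% and 16.8% of all genes were. The median log2 ratio of the 38 was 0.17, beside 0.02 over all genes tested. The other 29 tested rows were not past counting error. With an assumed coefficient of variation between libraries of 0.1, edgeR's exact test called 2 members, *Cdh15* and *Pcdha4*, with 0.2 it called *Cdh15*, and with 0.4 it called 0.

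**Figure D1:**
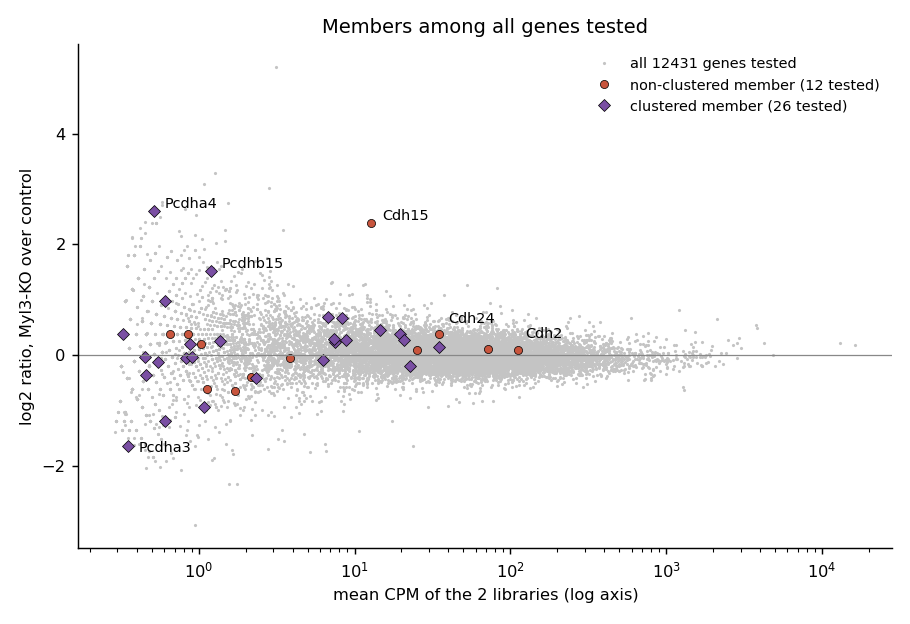
Each point is 1 gene tested, by the mean CPM of both libraries on a log axis and its log2 ratio, *Myl3*-KO over control, with the 12 non-clustered and 26 clustered members marked. *Cdh15* stands at a log2 ratio of 2.38 among genes of more than 10 CPM, whereas *Pcdha4*, *Pcdhb15* and *Pcdha3* lie at the left, where few reads were counted.

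Among the type I cadherins *Cdh2* carried most of the signal and *Cdh15* showed the difference. *Cdh2* (ENSMUSG00000024304), which encodes N-cadherin, had 1908 control and 1552 *Myl3*-KO counts, or 26.4 and 27.9 FPKM (reads scaled by transcript length and library size). This was the highest level of the family in either library, and its log2 ratio was 0.09 (95% interval -0.01 to 0.19, adjusted p = 0.159, exact binomial test). From counting alone the interval reaches up to a rise of 0.19 on the log2 scale.

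*Cdh15* (ENSMUSG00000031962, chromosome 8 from 122847966 to 122867397 on the forward strand of GRCm38) encodes M-cadherin, known from muscle precursor cells. It had 73 control and 290 *Myl3*-KO counts, which is 4.14 and 21.5 CPM, or 1.27 and 6.62 FPKM. It was 5.19-fold higher in *Myl3*-KO. Its log2 ratio was 2.38 (95% interval 2.001 to 2.767, adjusted p = 1.14e-43, exact binomial test). Among the 12431 genes tested it ranked 17 by the size of the rise and 76 by p. With an assumed coefficient of variation between libraries of 0.4, the exact test of edgeR gave an adjusted p of 1, and with 0.2 it gave 0.00225. *Cdh15* was the member with the largest rise among those with counts above the floor in both libraries.

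Most other muscle genes were at or near 0. Of 22 skeletal muscle and satellite cell markers, 13 had 0 counts in both libraries, among them *Pax7*, *Myf5*, *Myod1*, *Myog* and *Des*, and 19 (control) and 20 (*Myl3*-KO) were at or under the floor. Their summed level was 9.08 CPM (control) and 11.2 CPM (*Myl3*-KO). Most of it was *Pax3*, with 143 control and 139 *Myl3*-KO counts (log2 ratio 0.35, 95% interval -0.00 to 0.69, adjusted p = 0.112, exact binomial test). None of the 2 muscle markers tested was past counting error. The *Cdh15* gene lies on the same strand within the readthrough locus *Gm20388*, with which it shares no exon bases in GENCODE M21. *Gm20388* had 807.71 control and 560.82 *Myl3*-KO counts, a log2 ratio of -0.14 (95% interval -0.30 to 0.02), so it differed in the opposite direction within counting error. If the counts of both loci are added, the sum is 880.71 (control) and 850.82 (*Myl3*-KO), a log2 ratio of 0.34. The counts of *Cdh15*, 73 and 290, were whole numbers, whereas those of *Gm20388* were not. How the counting divided reads between both loci was not tested.

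The other type I cadherins were low. *Cdh3*, which encodes P-cadherin of epithelia, had 24 control and 12 *Myl3*-KO counts (log2 ratio -0.61, 95% interval -1.75 to 0.44), within counting error. *Cdh1*, which encodes E-cadherin and defines epithelial cells, had 3 counts and 2. The remaining type I gene was at 0 in both.

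**Figure D2:**
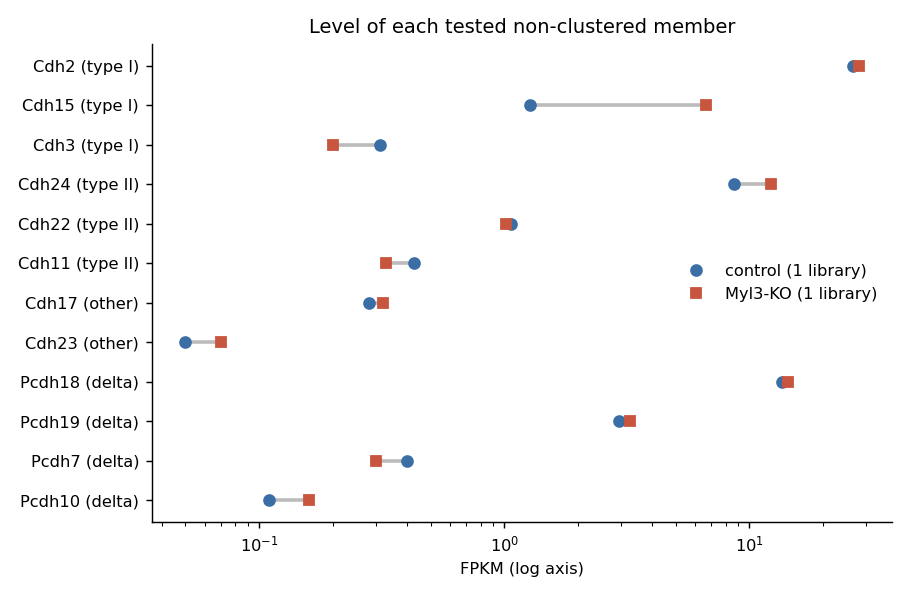
The FPKM of each of the 12 non-clustered members with enough counts to be tested is plotted on a log axis, as a circle for the control library and a square for the *Myl3*-KO library, grouped by type. *Cdh2*, *Pcdh18*, *Cdh24* and *Pcdh19* have the highest levels in the control, and *Cdh15* moves from 1.27 to 6.62 FPKM, above *Pcdh19* at 3.26 FPKM.

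Of the 13 type II cadherins, 7 were at 0 in both libraries, 3 had up to 5 counts over both, and 3 were tested. *Cdh24* (ENSMUSG00000059674, chromosome 14 from 54631231 to 54641364 on the reverse strand), which encodes a catenin-binding type II cadherin, had 532 control and 533 *Myl3*-KO counts, or 8.66 and 12.2 FPKM. The counts were level, and relative to the smaller *Myl3*-KO library it rose by a log2 ratio of 0.39 (95% interval 0.21 to 0.56, adjusted p = 9.18e-05, exact binomial test). This is less than the 2-fold that a call required. *Cdh22* had 69 control and 51 *Myl3*-KO counts (log2 ratio -0.05, 95% interval -0.60 to 0.49). *Cdh11*, the cadherin named for osteoblasts and known from mesenchymal and synovial cells, had only 43.01 control and 25 *Myl3*-KO counts, or 0.43 and 0.33 FPKM. Its log2 ratio was -0.40 (95% interval -1.17 to 0.35), within counting error. In the same libraries the mesenchymal transcription factor gene *Prrx1* had 24671 and 22182 counts. *Cdh5*, the cadherin of endothelium, had 0 counts in both libraries, and *Cdh19*, known from Schwann cell precursors, had 3 and 2.

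Endothelial, epithelial, immune, glial and neuronal marker lists were also low. Their summed levels were 1.65, 0.511, 2.73, 4.32 and 11.5 CPM in the control, in this order, and 3.04, 0.297, 3.41, 6.23 and 11.7 CPM in *Myl3*-KO. No gene of these 5 lists was called. Among 11 fibroblast and perichondrium markers, the small proteoglycan genes *Dcn* (631 control and 155 *Myl3*-KO counts) and *Lum* (272 and 81) were called lower. Of all genes tested, 0.394% were called lower. In that list 5 genes were past counting error upward and 3 downward, beside 18.6% and 16.8% of all genes tested. Those upward were the receptor genes *Pdgfrb* (3689 and 4617, log2 ratio 0.71) and *Pdgfra* (120 and 140, 0.61), *Prrx1* (0.23), *Col1a2* (0.22) and *Col1a1* (0.15). Downward besides *Dcn* and *Lum* was *Postn* (11656 and 8467, log2 ratio -0.08). Of 16 chondrocyte markers 8 were tested, of which the collagen gene *Col11a2* rose from 293 counts to 395 and the chondrocyte transcription factor gene *Sox9* fell from 866 to 480. The alkaline phosphatase gene *Alpl* of the 7 osteoblast markers fell from 46 counts to 7 and was called, whereas *Spp1* (207 and 247, log2 ratio 0.64) and *Runx2* (2952 and 2443, 0.11) rose past counting error. The part of these markers in the cadherin values was not tested.

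Among the 5 cadherins outside both types, 3 were at 0 in both libraries. *Cdh17*, the cadherin of liver and intestine, had 17 control and 15 *Myl3*-KO counts. *Cdh23*, a component of the tip links of hair cells, had 10 in each. Both were within counting error.

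The non-clustered protocadherins were represented by delta protocadherins only. *Pcdh18* (ENSMUSG00000037892, chromosome 3 from 49743296 to 49757325) had 1213 control and 1001 *Myl3*-KO counts, or 13.5 and 14.4 FPKM, second in level to *Cdh2*. Its log2 ratio was 0.11 (95% interval -0.01 to 0.23, adjusted p = 0.167, exact binomial test). *Pcdh19*, whose product is known to associate with N-cadherin, had 430 control and 352 *Myl3*-KO counts, or 2.94 and 3.26 FPKM, with a log2 ratio of 0.10 (95% interval -0.11 to 0.30). The ratios of *Cdh2*, *Pcdh18* and *Pcdh19* thus lay between 0.09 and 0.11, each within counting error. *Pcdh7* had 37 control and 18 *Myl3*-KO counts (log2 ratio -0.65, 95% interval -1.55 to 0.20), and *Pcdh10* had 13 in each. The other 5 delta protocadherins and the 3 remaining non-clustered protocadherins were at 0 in both libraries.

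The composition of the non-clustered family followed from these values. *Cdh2* made up 43.6% of its control counts (95% interval 42.1 to 45.1%) and 40.0% in *Myl3*-KO (38.5 to 41.6%). *Pcdh18* made up 27.7% and 25.8%, *Cdh24* 12.2% and 13.7%, and *Pcdh19* 9.82% and 9.08%. The share of *Cdh15* was 1.67% in the control (95% interval 1.31 to 2.09%) and 7.48% in *Myl3*-KO (6.67 to 8.35%). Neither the intervals of *Cdh15* nor those of *Cdh2* overlapped between the libraries. Shares of a sum depend on each other, and with *Cdh15* left out *Cdh2* held 44.3% (control) and 43.3% (*Myl3*-KO). Counts also depend on transcript length. In the sum of FPKM over the same genes *Cdh15* held 2.28% (control) and 9.89% (*Myl3*-KO). The summed counts of all 35 genes had a log2 ratio of 0.21, and of 0.12 with *Cdh15* left out.

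**Figure D3:**
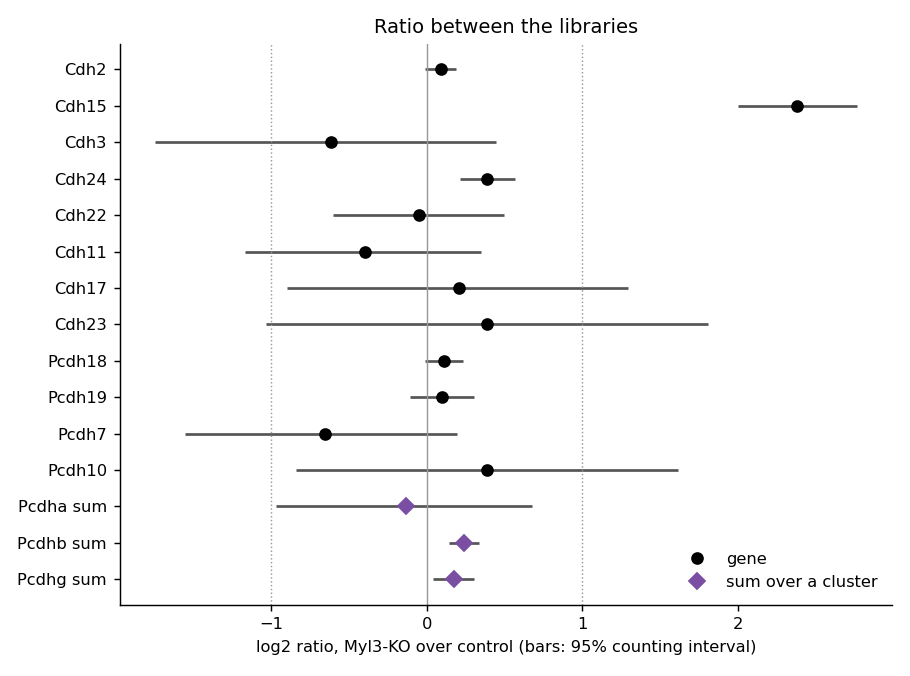
Log2 ratios of *Myl3*-KO over control are plotted for the 12 tested non-clustered members (circles) and for the summed counts of each cluster (diamonds), with 95% counting intervals as bars, the solid line at 0 and dotted lines at 2-fold. Of the circles, the intervals of *Cdh15* and *Cdh24* lie wholly above 0, and *Cdh15* alone lies beyond the 2-fold line.

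The clustered protocadherins were read by cluster first, because their genes cannot be counted apart with certainty. Each *Pcdha* or *Pcdhg* transcript joins 1 variable exon to constant exons that the whole cluster shares, whereas a *Pcdhb* gene is a single exon. Of the 31-base words in GENCODE M21 transcripts, a gene shared with other members a median of 62.3% in *Pcdha*, 46.0% in *Pcdhg* and 11.8% in *Pcdhb*, and the median of the non-clustered members was 0. Counts that were not whole numbers, which arise where reads are divided between genes, stood at 9 of the 10 counted *Pcdha* genes, 12 of 13 *Pcdhg* genes, 2 of 20 *Pcdhb* genes and 1 of 16 non-clustered genes. The *Pcdhb* sum was 1774 control and 1601 *Myl3*-KO counts, a log2 ratio of 0.24 (95% interval 0.14 to 0.34). The *Pcdhg* sum was 1008.99 and 870.01 counts, a log2 ratio of 0.17 (0.04 to 0.30). The *Pcdha* sum was 33 and 23 counts, a log2 ratio of -0.13 (-0.97 to 0.68).

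Within *Pcdhb* the reads were concentrated at the far end of the array. *Pcdhb16* had 429 control and 287 *Myl3*-KO counts (log2 ratio -0.19, 95% interval -0.41 to 0.03, adjusted p = 0.173, exact binomial test). It was the most counted *Pcdhb* gene in the control, with 24.2% of the cluster, and held 17.9% in *Myl3*-KO. *Pcdhb17* had 299 and 298 counts, so that it rose relative to the library total (log2 ratio 0.38, 95% interval 0.14 to 0.62, adjusted p = 0.00547, exact binomial test) and became the most counted gene of the cluster in *Myl3*-KO. *Pcdhb22* had 218.18 and 227.85 counts (log2 ratio 0.45, adjusted p = 0.00494, exact binomial test). *Pcdhb21* had 140.82 and 130.15 counts, also not whole, whereas both genes together had whole counts of 359 (control) and 358 (*Myl3*-KO), and this sum had a log2 ratio of 0.38 (95% interval 0.17 to 0.60).

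*Pcdhb19* (91 control and 112 *Myl3*-KO counts, log2 ratio 0.69) and *Pcdhb20* (113 and 137, log2 ratio 0.66) were past counting error and below 2-fold. *Pcdhb15* went from 11 counts to 24, a log2 ratio of 1.51 (95% interval 0.43 to 2.69, adjusted p = 0.0123, exact binomial test), and was the called gene of this cluster. Its level was 0.22 FPKM in the control and 0.64 in *Myl3*-KO. All 5 *Pcdhb* genes past counting error rose and lie from *Pcdhb15* to *Pcdhb22*, and 13 of the 18 tested were not past it. Of all genes tested, 18.6% were past it upward. In a division of the array made after its values were seen, the 9 genes from *Pcdhb14* to *Pcdhb22* had 1540 control and 1435 *Myl3*-KO counts, and the 13 genes from *Pcdhb1* to *Pcdhb13* had 234 and 166. *Pcdhb5* held 114 and 82 of the latter, and no other gene of these 13 had more than 25 counts in a library. At such counts a ratio like that of *Pcdhb17* or *Pcdhb22* could not pass the test. The position of the 5 genes past counting error is thus not a result apart from where the reads lie.

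The *Pcdhg* counts came almost wholly from 2 of the genes of the C type, which lie at the end of the cluster and are known to be expressed without random choice. *Pcdhgc3* had 581.55 control and 493.38 *Myl3*-KO counts (log2 ratio 0.15, 95% interval -0.03 to 0.32). *Pcdhgc4* had 333.76 and 308.11 (log2 ratio 0.27, 95% interval 0.04 to 0.50, adjusted p = 0.0526, exact binomial test). Together they held 915.31 of the control counts of the cluster and 801.49 of those of *Myl3*-KO. *Pcdhgb8*, the third in counts, had 47 and 27 (log2 ratio -0.41, 95% interval -1.15 to 0.30). The 6 *Pcdhg* genes tested were all within counting error, and 9 of the 22 were at 0 in both libraries.

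The calls within *Pcdha* rest on a handful of reads. *Pcdha4* had 0 control and 13.9 *Myl3*-KO counts, 6.05-fold higher with the control count raised to the floor of 3 (adjusted p = 6.18e-05, exact binomial test). *Pcdha3* had 12.3 control and 0 *Myl3*-KO counts, 3.14-fold lower with the *Myl3*-KO count raised to the same floor (adjusted p = 0.00746, exact binomial test). The counting intervals of these log2 ratios began at 2.12 and ended at -1.09. *Pcdha11*, the third most counted, had 7 control and 0 *Myl3*-KO counts on 1 of its rows and was not tested. The most counted gene was thus another one in each library while the cluster sum differed within counting error. *Pcdha4* also shares 2410 exon bases with the readthrough locus *Gm42416*, which had 4 control and 0 *Myl3*-KO counts. Whether reads were assigned to another member of the cluster in each library was not tested.

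**Figure D4:**
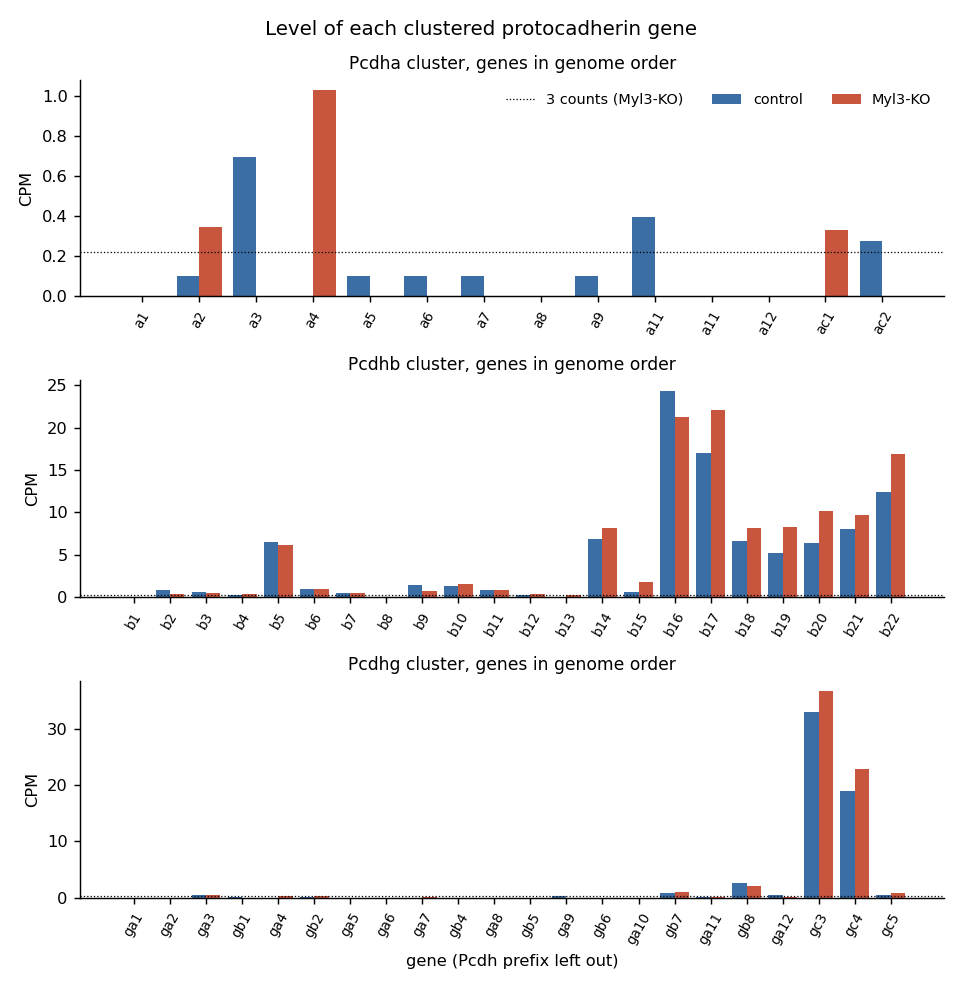
The CPM of every clustered protocadherin row is drawn as bars from 0, for the control and the *Myl3*-KO library side by side, with the genes in their order along the genome and a dotted line at 3 counts of the *Myl3*-KO library. *Pcdhb* levels gather from *Pcdhb14* to *Pcdhb22* and *Pcdhg* levels at *Pcdhgc3* and *Pcdhgc4*, and the *Pcdha* axis spans about 1 CPM.

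Of the partners of the cadherins, *Ctnnb1*, *Ctnna1*, *Ctnnd1* and *Vcl* had more counts than any cadherin or protocadherin gene. Other partners were low, such as *Jup* with 25 control and 32 *Myl3*-KO counts, and *Ctnna2* and *Ctnna3* were at 0 in both. Of 15 catenin and junction linker genes, 12 were tested, 3 were past counting error upward, 1 downward, and 0 were called, beside 18.6% upward and 16.8% downward of all genes. β-catenin (*Ctnnb1*) had 17922 control and 14016 *Myl3*-KO counts (log2 ratio 0.03, 95% interval -0.00 to 0.06). The α-catenin gene *Ctnna1* (5185 and 4426 counts, log2 ratio 0.16), the p120 catenin gene *Ctnnd1* (4906 and 4512, log2 ratio 0.27) and the vinculin gene *Vcl* (4332.97 and 4196.09, log2 ratio 0.34) rose. *Pkp4*, which encodes a plakophilin of the p120 family, fell by 0.18 on the log2 scale, from 1481 to 1000 counts. The median log2 ratio of the list was 0.18.

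Among 25 other genes of the cadherin superfamily 6 were tested and 3 were past counting error, all upward, where 18.6% of all genes tested were past it upward and 16.8% downward. *Celsr2*, a seven-pass cadherin of planar cell polarity, rose from 24 to 50 counts and was called (log2 ratio 1.44, 95% interval 0.71 to 2.21, adjusted p = 2.08e-04, exact binomial test). The calsyntenin gene *Clstn1* (3178 and 3085 counts, log2 ratio 0.34) and the giant cadherin gene *Fat1* (1644 and 1548, log2 ratio 0.30) rose by less than 2-fold. *Fat4*, which binds Dachsous cadherins, had 1537 and 1185 counts (log2 ratio 0.01).

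Of 10 genes for enzymes that cut cadherins or their remaining stubs, 9 were tested. The membrane metalloproteinase gene *Mmp14* (4997 and 4834 counts, log2 ratio 0.34) and the γ-secretase gene *Ncstn* (log2 ratio 0.38) rose, *Adam9* (2562 and 1806 counts) fell by 0.12 on the log2 scale, and *Adam10*, the main sheddase of N-cadherin, had 4312 and 3217 counts (log2 ratio -0.04). Of 8 transcription factor genes known to repress *Cdh1* or related cadherin genes, *Snai2* (403 and 427 counts, log2 ratio 0.47), *Zeb2* (log2 ratio 0.25) and *Tcf4* (3082 and 2661 counts, log2 ratio 0.17) rose and *Snai1* fell by 0.22. *Tcf3* (3708 and 2886 counts) and *Zeb1* (1655 and 1265) had log2 ratios of 0.02 and -0.00. No gene of these lists was called.

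The 16 genes that regulate clustered protocadherin promoters were all tested, and their counts past counting error stand beside the same 18.6% upward and 16.8% downward of all genes. Upward past counting error were 4, the DNA and histone methyltransferase genes *Dnmt1*, *Ehmt1*, *Ehmt2* and *Setdb1*, by 0.10 to 0.16 on the log2 scale. Downward were 5, namely *Ctcf* (2109 control and 1368 *Myl3*-KO counts, log2 ratio -0.24), the cohesin genes *Rad21* (7605 and 4999, log2 ratio -0.22), *Stag1* (log2 ratio -0.22) and *Stag2* (-0.14), and *Smchd1* (-0.16), which encodes a chromatin protein that silences the clusters. The cohesin genes *Smc3* (5804 and 4278 counts) and *Smc1a* (5570 and 4171) were within counting error. Of the 11 WAVE complex genes 10 were tested and 1 was past counting error, *Wasf2*, with 2451 and 2293 counts (log2 ratio 0.29). *Nckap1*, whose product is bound by delta protocadherins, had 4708 and 3623 counts (log2 ratio 0.01), *Cyfip1* had 3314.25 and 2672.21 (0.07), and *Brk1* had 3111 and 2233 (-0.09).

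**Figure D5:**
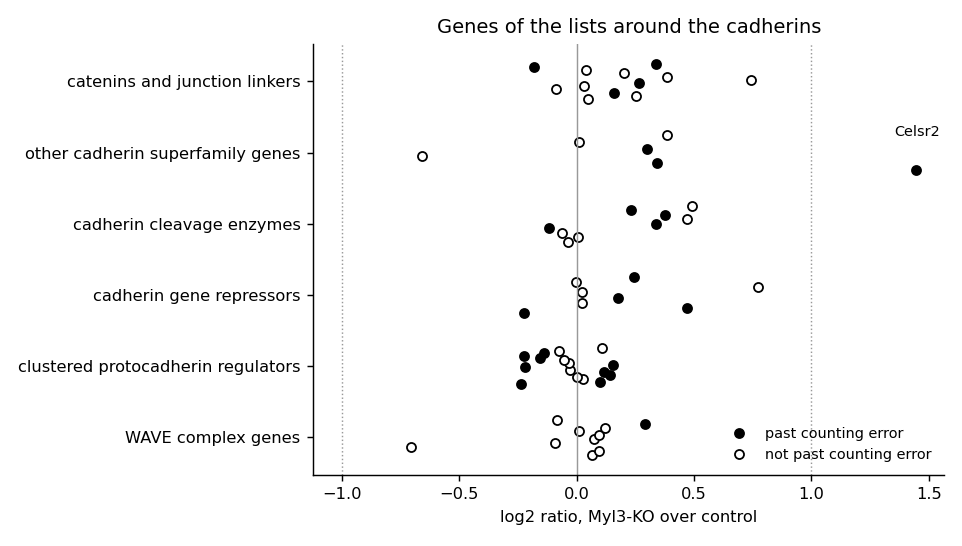
Each circle is 1 tested gene of the 6 lists, placed by its log2 ratio of *Myl3*-KO over control, filled where it was past counting error, with the solid line at 0 and dotted lines at 2-fold. *Celsr2* is the one gene beyond the 2-fold line.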

How the data were processed

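Expected counts and FPKM per gene were deposited by the authors for 1 control and 1 *Myl3*-KO library. The expected counts carry no normalization, and the FPKM values were scaled by the authors by gene length and library. The submitters' processing notes name the builds GRCm38 and mm10, and the aligner and the counting tool are not given in the sources used here. The study's text describes oligo bead enrichment of mRNA, whereas the labels name a SMARTER kit. The column headed NC was read as control because the other is headed KO. Expected counts were rounded for the exact binomial test and its Clopper-Pearson intervals, and ratios used unrounded values divided by the library totals. With 1 library per genotype the quasi-likelihood test of edgeR and the test of DESeq2 lack residual degrees of freedom and were left out. Coordinates and exon overlaps are from GENCODE M21 on GRCm38, which held all 93 members. All non-clustered members with at least 10 counts are named, and of each cluster and of the 6 lists around the cadherins the called and the 3 most counted genes. Cell type markers are named where they were called, past counting error or define a cell type, and not all of them are named. Other genes past counting error, and *Pcdhb5* and *Pcdhb21*, were named after their values were seen. Members, lists and tests were chosen with earlier results of these data known. Results of some listed genes are not reported here. The test was tried on simulated counts with known changes. The tools were numpy 2.4.6, scipy 1.17.1, pandas 2.3.3 and matplotlib 3.10.9 under Python 3.11.15, with DESeq2 1.42.0 and edgeR 4.0.16 under R 4.3.3.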

Additional observations from a re-analysis of the deposited data

How the results depend on the processing

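Alternatives were scaling by TMM or DESeq2 factors, other filters on low counts, 1 count added, FPKM ratios, the exact test of edgeR at set coefficients of variation between libraries, and other limits on the ratio. No paired analysis was possible because each group has 1 library. With a coefficient of variation of 0.1, 0.2 and 0.4, the members called higher were 2, 1 and 0 in place of 3, those called lower 0 in place of 1, and those past the test at any size 2, 1 and 0 upward in place of 8 and 0 downward in place of 1. *Cdh15* was the member still called at 0.2. The listed genes past the test were 0 in place of 17 upward and 8 downward at each of these coefficients, and the *Pcdhb* and *Pcdhg* sums (log2 ratios 0.24 and 0.17) were no longer past an unadjusted threshold. Over all genes, 31, 3 and 1 were then called higher and 14, 1 and 0 lower, in place of 143 and 49. At any size 41, 3 and 1 of all genes were past the test upward and 20, 1 and 0 downward, in place of 2307 and 2090. With at least 10 counts in each library *Pcdha3* and *Pcdha4* were not tested, which left 2 members called higher and 0 lower, and 0 downward at any size (91 higher and 31 lower of all genes). A log2 limit of 2 gave 2 members higher and 0 lower (31 and 5 of all genes), and a 1.5-fold limit gave 5 and 1 (390 and 115 of all genes). By FPKM *Cdh2* held 47.5% of the non-clustered family in the control and 41.7% in *Myl3*-KO. Of 161 values for 23 named members under alternatives, 24 kept direction only, all of these with a preset coefficient of variation. The other 137 kept direction, and side of the threshold where it could change. Ratios with 1 count added or by FPKM reused the adjusted p of the main test, so they could not change side. FPKM ratios were judged by the counting interval instead. The log2 ratio of *Cdh15* ranged from 2.35 to 2.38. *Pcdhb6*, outside the rule for named genes, had 16 control and 12 *Myl3*-KO counts but 0.29 and 0.47 FPKM. The cause was not tested.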
